A study of Homo sapiens with 5 samples.

Results

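The SLC25 family comprises the genes of the mitochondrial carriers, here the 40 genes whose symbol starts with SLC25A, holds no hyphen, and that reached 1 or more CPM (counts scaled to a common library size with TMM factors, which correct for differences in library composition) in at least 1 of 5 libraries. They were drawn from 50 such rows among 26475 rows of the deposited table, and 13940 genes in all passed the same minimum of 1 CPM. The libraries came from MDA-MB-231 cells, an established line from a triple-negative human breast carcinoma, with 1 library for each of 5 conditions. Cells spent 1 day in 1% O2 (acute hypoxia) or in 20% O2, or 10 days in 1% O2 (chronic hypoxia) or in 20% O2, and reoxygenated cells first spent 10 days in 1% O2 and next 10 days back in 20% O2. The study asks how short and long hypoxia differ and what remains after reoxygenation. No allele, drug or other agent is named for any condition. All libraries share 1 parental line grown as a bulk culture, so in every comparison a change in the number of cells of 1 kind cannot be told apart from a change in RNA per cell. Of the 10 rows left out, the highest, SLC25A34, reached 0.767 CPM. The lowest of the members, SLC25A21, reached 1.95 CPM.

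Mitochondrial carriers are small proteins that, with few exceptions, sit in the inner mitochondrial membrane and move nucleotides, phosphate, carboxylates, amino acids, cofactors and metal ions between the cytosol and the matrix. They are made in the cytosol from nuclear genes, and the matrix depends on them for substrates of the citrate cycle, for cofactors of its enzymes and for the exchange of ADP against ATP. Low oxygen limits respiration, and the hypoxia-inducible factors (HIFs), transcription factors that accumulate when oxygen runs short, are known to shift carbon away from mitochondrial oxidation.

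Promoter sequences are shown for 5 members, chosen after their values were seen: those with the highest (SLC25A27) and the lowest (SLC25A28) day 10 difference, the one with the highest day 1 difference (SLC25A36), and 2 that passed 2-fold in the contrast between the days, SLC25A12 downward and SLC25A51 upward. They are given because HIFs bind DNA at short motifs named hypoxia response elements. They run 5′ to 3′ on the gene's own strand, from 250 bases before to 50 bases after the annotated start (RefSeq, GRCh38.p14), and capitals mark each ACGTG or GCGTG, the core of the hypoxia response element, on either strand (reading CACGT or CACGC where the core lies on the opposite strand). CACGTG reads the same on both strands, so it holds ACGTG on each and was counted as 2 cores. The window of SLC25A36, on chromosome 3 from 140941586 to 140941885 on the plus strand, held 5 such cores, that of SLC25A51, on chromosome 9 from 37904078 to 37904377 on the minus strand, held 4, and that of SLC25A12, on chromosome 2 from 171894195 to 171894494 on the minus strand, held 2. SLC25A28, on chromosome 10 from 99620390 to 99620689 on the minus strand, had 1 core, and SLC25A27, on chromosome 6 from 46652725 to 46653024 on the plus strand, had 0. The SLC25A28 window is set at an annotated start inside the gene, which spans 99610522 to 99659286.
SLC25A36: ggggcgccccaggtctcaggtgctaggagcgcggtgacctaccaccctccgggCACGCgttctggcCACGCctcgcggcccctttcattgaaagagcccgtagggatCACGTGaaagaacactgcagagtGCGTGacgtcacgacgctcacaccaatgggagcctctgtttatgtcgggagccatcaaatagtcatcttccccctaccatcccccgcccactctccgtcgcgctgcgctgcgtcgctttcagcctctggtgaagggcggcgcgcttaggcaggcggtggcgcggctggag
SLC25A51: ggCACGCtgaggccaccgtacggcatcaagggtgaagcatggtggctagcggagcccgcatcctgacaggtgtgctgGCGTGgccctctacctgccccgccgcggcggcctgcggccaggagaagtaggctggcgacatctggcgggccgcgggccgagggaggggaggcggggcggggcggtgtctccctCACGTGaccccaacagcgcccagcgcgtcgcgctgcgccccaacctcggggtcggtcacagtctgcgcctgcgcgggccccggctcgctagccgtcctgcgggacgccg
SLC25A12: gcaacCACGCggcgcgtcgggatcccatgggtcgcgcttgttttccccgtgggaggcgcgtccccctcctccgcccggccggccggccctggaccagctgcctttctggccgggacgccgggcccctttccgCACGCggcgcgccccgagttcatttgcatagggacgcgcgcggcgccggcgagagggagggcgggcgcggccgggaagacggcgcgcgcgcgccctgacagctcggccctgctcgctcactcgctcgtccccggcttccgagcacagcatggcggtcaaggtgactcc
SLC25A28: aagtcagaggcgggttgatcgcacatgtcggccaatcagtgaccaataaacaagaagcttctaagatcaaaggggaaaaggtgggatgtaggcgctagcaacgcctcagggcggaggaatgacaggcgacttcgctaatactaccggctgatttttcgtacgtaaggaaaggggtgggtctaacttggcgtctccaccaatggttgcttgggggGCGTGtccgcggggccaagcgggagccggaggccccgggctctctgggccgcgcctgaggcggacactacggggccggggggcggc
SLC25A27: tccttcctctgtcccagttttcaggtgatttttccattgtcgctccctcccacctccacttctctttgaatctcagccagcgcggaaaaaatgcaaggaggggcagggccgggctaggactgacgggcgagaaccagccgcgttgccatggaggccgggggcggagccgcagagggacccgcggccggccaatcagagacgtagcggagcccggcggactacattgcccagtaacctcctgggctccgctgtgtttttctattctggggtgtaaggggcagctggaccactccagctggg

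A RefSeq promoter was matched for 34 of the 40 members, and those not matched included SLC25A16, SLC25A30, SLC25A32, SLC25A35 and SLC25A37. At least 1 core, ACGTG or GCGTG, occurred in 29 of the 34 windows (85.3%), against 62.5% of 10360 promoters of the compared genes and 48.4% of all 35116 promoters of this length. The member windows were also richer in G and C, with a median of 68.5%, against 65.3% and 58.7% in those sets, and whether base composition accounts for the core count was not tested. GCGTG alone was found in 82.4% of member windows, against 50.2% and 36.5%. The ACGTG core was found in 32.4%, against 26.6% and 21.4%. The E-box CACGTG, which contains ACGTG, occurred in 20.6%, against 9.88% and 7.26%. The core GCGCATGC of the nuclear respiratory factor NRF1, searched on both strands like the others, was found in 0 of 34 windows, against 5.35% and 3.05%.

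The libraries held 11189158 (1% O2) and 10764198 (20% O2) estimated counts on day 1, 7719807 in reoxygenated cells, and 9781971 (1% O2) and 12544941 (20% O2) on day 10, so that 1 read was worth 0.0816 to 0.126 CPM. A count of 0 allows up to 3 counts, or 0.245 to 0.377 CPM. With 1 library per condition each difference compares a pair of libraries and has no replicate check. It is given as log2 of the CPM ratio (prior count 2) with the exact Clopper-Pearson 95% interval of the ratio of the counts, which reflects counting error alone. Counts of members or genes called higher or lower take those whose log2 difference reached 1 in size (2-fold); elsewhere, higher and lower state the sign of a difference, given with its interval. Mesenchymal genes typical of the line were abundant (VIM, 2149 CPM at 1% O2 on day 1), and the estrogen and progesterone receptor genes ESR1 and PGR had between 0 and 4 counts in each library. All 5 mesenchymal markers listed lay below 0 at 1% O2 on day 10, with a median of −0.68 and a range of −1.08 (CD44) to −0.40 (ZEB1), and their summed level was 2680 CPM at 1% O2 and 4499 CPM at 20% O2 on day 10, 3615 CPM in reoxygenated cells, and 4933 CPM at 1% O2 and 4998 CPM at 20% O2 on day 1. The sum of the 6 luminal and epithelial markers was 37.8 CPM at 1% O2 on day 10 and 25.7 to 27.5 CPM in the other 4 libraries. On day 10 EPCAM differed by 0.94 (0.68 to 1.22) and GATA3 by −0.62 (−1.10 to −0.19). The intervals of FOXA1, at 0.71 (−0.61 to 2.49), and CDH1, at −0.25 (−1.70 to 1.04), spanned 0. Of 6 markers of blood cells and endothelium, CD3E and HBB had 0 counts in all 5 libraries, while PTPRC (28 against 14 counts), CD14 (40 against 15) and CDH5 (14 against 4) were past 2-fold higher at 1% O2 on day 10, and PECAM1 had 6 against 9. Their sum was 8.44 CPM at 1% O2 and 3.43 CPM at 20% O2 on day 10, 5.16 CPM in reoxygenated cells, and 2.23 CPM at 1% O2 and 3.76 CPM at 20% O2 on day 1. The part of these 3 marker lists in the carrier differences was not tested. The hypoxia-response genes CA9, NDRG1, EGLN3 and VEGFA were all higher at 1% O2 on both days, by log2 differences of 0.87 to 3.30 on day 1 and 2.50 to 5.55 on day 10.

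In sum and in median the family was lower at 1% O2, slightly on day 1 and by a larger median difference on day 10. Members lay on both sides of 0 on both days. Summed over the 40 members, the level was 2568 CPM at 1% O2 and 2809 CPM at 20% O2 on day 1. On day 10 the sum was 1939 CPM at 1% O2 and 2547 CPM at 20% O2, and in reoxygenated cells it was 2335 CPM. On day 1, 31 of 40 members lay below 0 with a median log2 difference of −0.13, beside a median of 0.00 over all 13940 genes, of which 49.6% lay below 0. The size rule called 0 members higher on day 1, beside 2.12% of all genes, and 1 member lower (SLC25A35, on 3 and 10 counts), beside 0.839% of all genes. On day 10 the median of the members was −0.54, beside 0.02 over all genes. Of the 40 members, 27 lay below 0, beside 49.1% of all genes. Then 4 members were higher, beside 14.4% of all genes, and 8 were lower, beside 7.04% of all genes. As shares of the 40 members, both directions together made 30%, beside 21.5% of all genes.

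**Figure D1:**
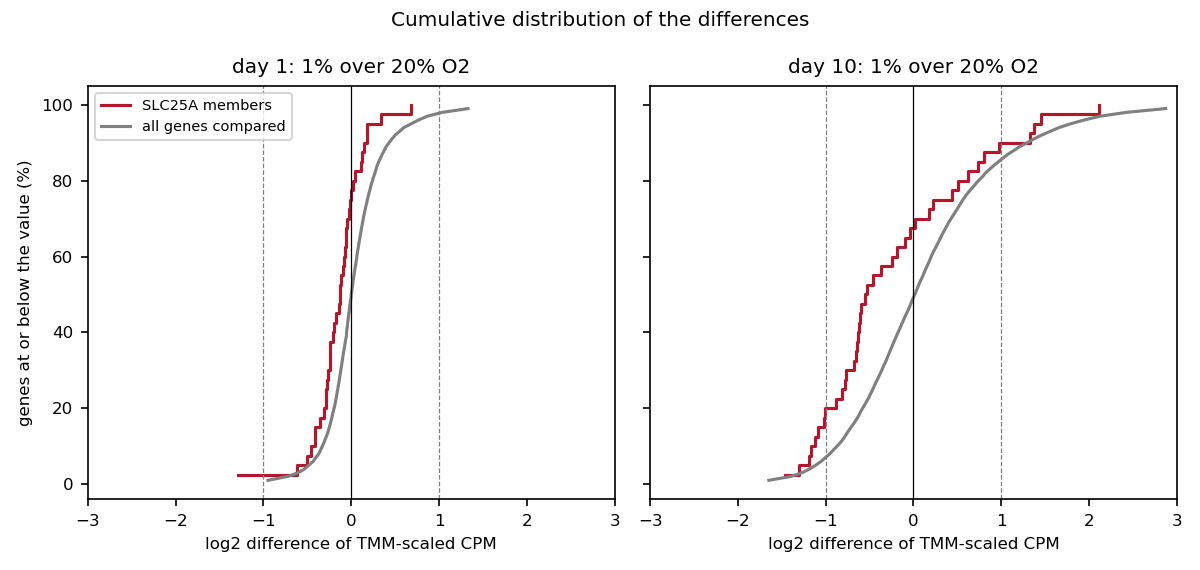
Cumulative share of genes (vertical axis, percent) at or below each log2 difference of TMM-scaled CPM (horizontal axis), for 1% O2 over 20% O2 on day 1 (left) and day 10 (right); the red steps are the 40 SLC25A members, the grey line runs through the 1st to 99th percentiles of all 13940 genes compared, and dashed lines mark the 2-fold rule. On day 10 the member curve lies left of the grey line over its lower part, with a median of −0.54 against 0.02.

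Counting intervals lay above 0 for 12 members on day 10, beside 33.9% of all genes, and below 0 for 23, beside 35.8% of all genes, leaving 5 members whose interval spanned 0. On day 1 they lay above 0 for 4 members, beside 15.9% of all genes, and below 0 for 14, beside 15.5% of all genes. Cell division genes also differed in these libraries: MKI67, TOP2A, CCNB1, PLK1 and RRM2 were all lower at 1% O2 on day 10, by log2 differences of −2.11 to −1.01, and lay between −0.28 and 0.40 on day 1; their part in the carrier differences was not tested. Scaling by library totals alone moved the day 10 median of all genes by 0.12 and gave 5 members higher and 4 lower in place of 4 and 8. Under that scaling the members that lay just short of the rule included SLC25A13, SLC25A17 and SLC25A53, and SLC25A51 passed it.

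**Figure D2:**
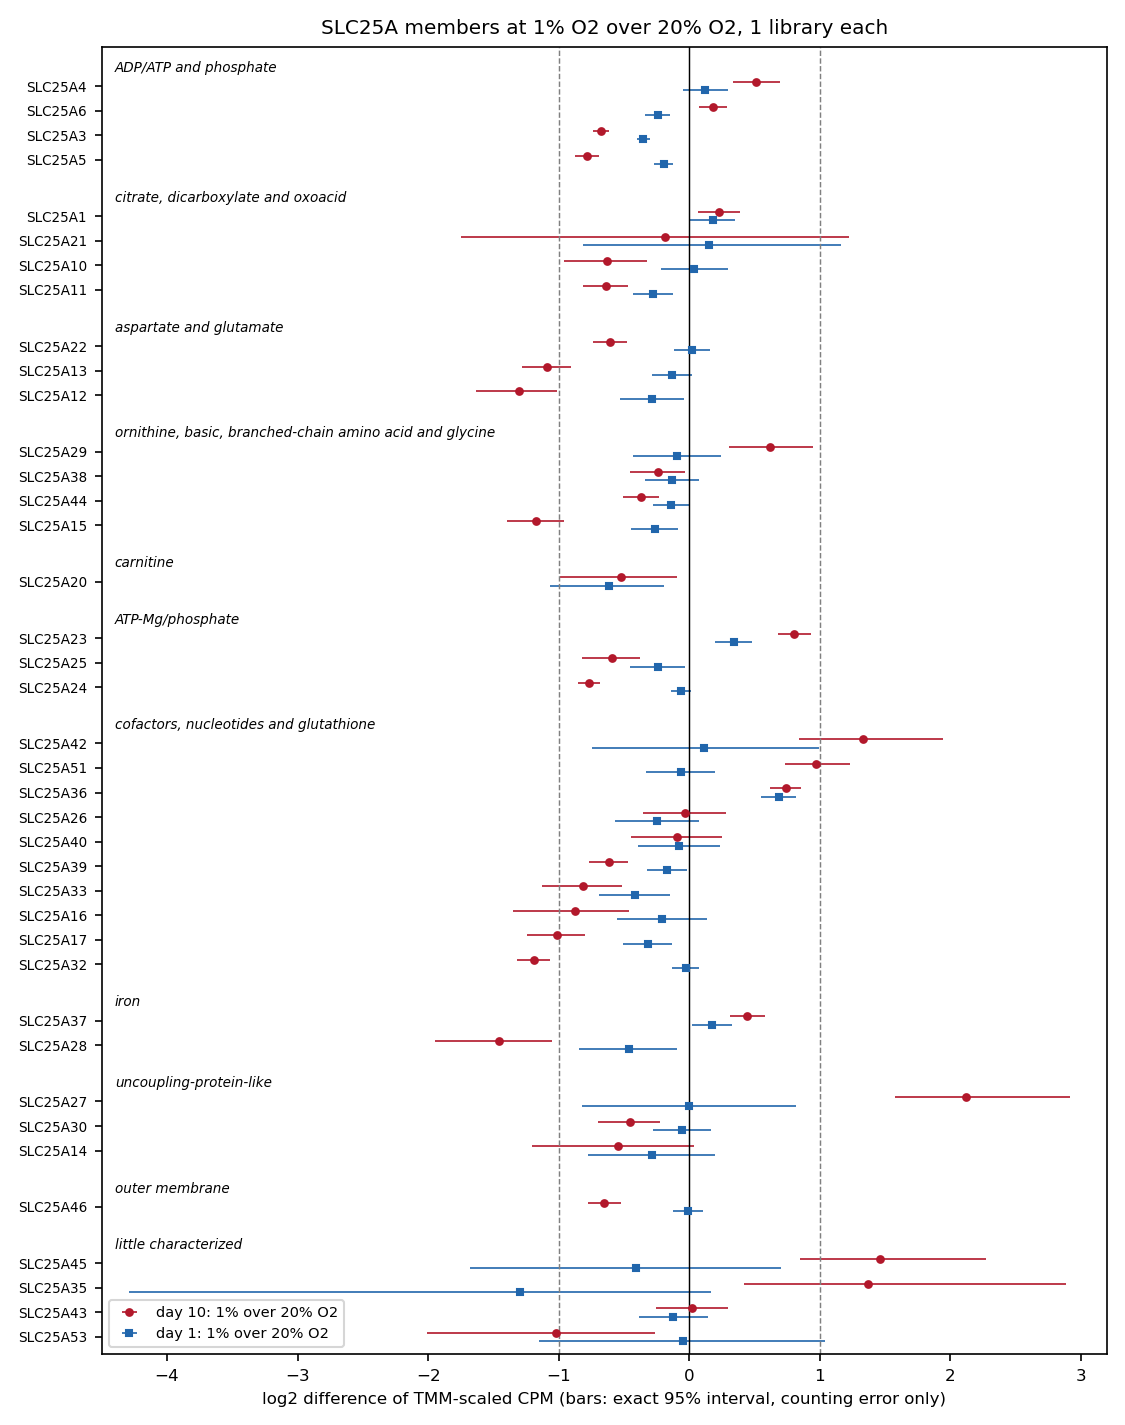
Log2 difference of TMM-scaled CPM (horizontal axis) for 39 of the 40 members (rows, grouped by substrate and ordered within a group by the day 10 value), at 1% O2 over 20% O2 on day 10 (red circles) and day 1 (blue squares), 1 library per condition; bars are exact 95% intervals for counting error alone and dashed lines mark the 2-fold rule. Day 10 values spread from −1.46 (SLC25A28) to 2.12 (SLC25A27), and day 1 values of all but SLC25A35 lie between −0.61 and 0.68.

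The ADP/ATP and phosphate carriers, which supply the ATP synthase and release its product, split in direction on day 10. Per kilobase of transcript, the levels of the family at 20% O2 on day 10 were led by SLC25A3 at 348 CPM, SLC25A5 at 190 CPM, SLC25A24 at 83.4 CPM, SLC25A46 at 75.2 CPM and SLC25A6 at 57.7 CPM. SLC25A3, the phosphate carrier (chromosome 12, 98593686 to 98606367), had 433 CPM in reoxygenated cells, 296 CPM at 1% O2 and 472.5 CPM at 20% O2 on day 10, and 502 CPM at 1% O2 and 640 CPM at 20% O2 on day 1. The day 10 hypoxic library was the lowest of the 5, and both 1% O2 libraries lay below their 20% O2 partner. The log2 difference was −0.67 (−0.74 to −0.61) on day 10 and −0.35 (−0.40 to −0.30) on day 1. SLC25A5, the ADP/ATP carrier known from proliferating cells (chromosome X, 119468444 to 119471396), had 216 CPM in reoxygenated cells, 141 CPM at 1% O2 and 243 CPM at 20% O2 on day 10, and 259 CPM at 1% O2 and 297 CPM at 20% O2 on day 1. Its day 10 difference of −0.78 (−0.88 to −0.69) was the lowest of this group.

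SLC25A4, the ADP/ATP carrier typical of heart and muscle (chromosome 4, 185143266 to 185150382), had 36.4 CPM in reoxygenated cells, 54.6 CPM at 1% O2 and 38.2 CPM at 20% O2 on day 10, and 53.9 CPM at 1% O2 and 49.5 CPM at 20% O2 on day 1. It was higher at 1% O2 by 0.51 (0.34 to 0.69) on day 10, while its day 1 interval, −0.05 to 0.30, spanned 0. Between the 20% O2 libraries it was itself lower on day 10 than on day 1, at −0.37 (−0.56 to −0.19), so the hypoxic level of day 10 was close to both day 1 levels. SLC25A6, the broadly expressed ADP/ATP carrier (chromosome X, 1386152 to 1392113), had 115.5 CPM in reoxygenated cells, 135 CPM at 1% O2 and 119 CPM at 20% O2 on day 10, and 156.5 CPM at 1% O2 and 185 CPM at 20% O2 on day 1. Its differences were 0.18 (0.07 to 0.29) on day 10 and −0.24 (−0.34 to −0.15) on day 1, and day 10 over day 1 at 20% O2 gave −0.64 (−0.74 to −0.54).

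Within the ADP/ATP carriers the make-up of the counts differed in the day 10 hypoxic library. SLC25A5 made 42.7% of the counts of the 3 genes there (exact 95% interval 41 to 44.3%), against 60.7% (59.3 to 62.1%) at 20% O2. SLC25A6 made 40.8% (39.2 to 42.5%) at 1% O2 against 29.8% (28.5 to 31.1%) at 20% O2, and SLC25A4 made 16.5% (15.3 to 17.8%) against 9.56% (8.75 to 10.4%). Reoxygenated cells had 58.7% from SLC25A5, 31.4% from SLC25A6 and 9.89% from SLC25A4. On day 1 the SLC25A5 share was 55.2% at 1% O2 and 55.8% at 20% O2, and the SLC25A6 share was 33.3% at 1% O2 and 34.9% at 20% O2, with intervals that overlapped for each gene. The SLC25A4 share was 11.5% (10.6 to 12.4%) at 1% O2 and 9.32% (8.56 to 10.1%) at 20% O2 on day 1, with intervals that did not overlap. Ratios of this kind do not depend on the scaling of the libraries. Per kilobase of transcript, SLC25A5 stood at 111 CPM and SLC25A6 at 65.3 CPM at 1% O2 on day 10, and at 190 CPM and 57.7 CPM at 20% O2. SLC25A5 and SLC25A6 share some sequence with pseudogenes, and 5.3% of sampled 50-base words of SLC25A5 transcripts and 1.0% of those of SLC25A6 occur in another gene.

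**Figure D3:**
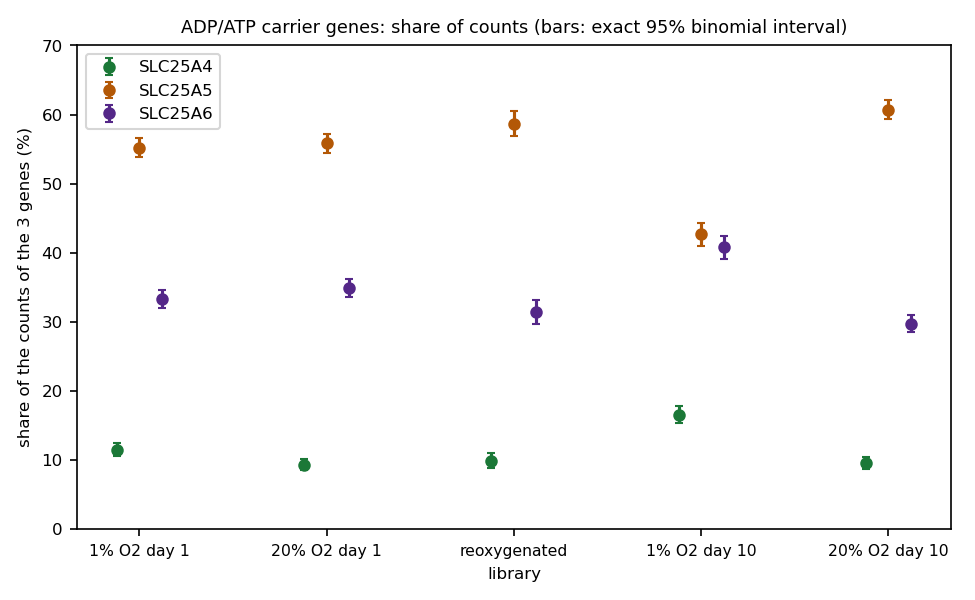
Share of the counts of SLC25A4, SLC25A5 and SLC25A6 together (vertical axis, percent) that came from each gene, in the 5 libraries (horizontal axis); points are shares and bars exact 95% binomial intervals for counting error alone. In the 1% O2 library of day 10, SLC25A5 (42.7%) and SLC25A6 (40.8%) stand close together, while in the other 4 libraries SLC25A5 lies between 55.2% and 60.7%.

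The carriers of citrate, dicarboxylates and oxoacids showed differences under 2-fold. SLC25A1, which exports citrate for fatty acid synthesis (chromosome 22, 19175581 to 19178736), had 54.2 CPM in reoxygenated cells, 61.9 CPM at 1% O2 and 52.8 CPM at 20% O2 on day 10, and 55.2 CPM at 1% O2 and 48.7 CPM at 20% O2 on day 1. Both hypoxic libraries were the highest, with differences of 0.23 (0.07 to 0.39) on day 10 and 0.18 (0.01 to 0.35) on day 1. SLC25A11, the oxoglutarate/malate exchanger of the malate-aspartate shuttle, had 59.5 CPM in reoxygenated cells, 39.8 CPM at 1% O2 and 62.0 CPM at 20% O2 on day 10, and 59.2 CPM at 1% O2 and 71.7 CPM at 20% O2 on day 1. It was lower at 1% O2, at −0.64 (−0.82 to −0.47) on day 10 and −0.27 (−0.43 to −0.12) on day 1. The dicarboxylate carrier gene SLC25A10 differed by −0.63 (−0.96 to −0.32) on day 10 and 0.04 (−0.22 to 0.29) on day 1. For SLC25A10, 59.2% of sampled transcript words also occur in the overlapping gene model AC139530.2, so its reads can have been split. SLC25A21, an oxoadipate carrier, was near the minimum, with 8 counts at 1% O2 and 11 at 20% O2 on day 10.

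Of the 3 aspartate and glutamate carriers, SLC25A12 and SLC25A13 were past 2-fold lower in the day 10 hypoxic library, and SLC25A22 lay below 0 short of that. SLC25A12 (aralar; chromosome 2, 171783405 to 171894244) and SLC25A13 (citrin; chromosome 7, 96120220 to 96322098) exchange matrix aspartate for glutamate and complete the malate-aspartate shuttle, which carries reducing equivalents from cytosolic NADH into the matrix. SLC25A12 had 30.6 CPM in reoxygenated cells, 11.4 CPM at 1% O2 and 28.5 CPM at 20% O2 on day 10, and 23.8 CPM at 1% O2 and 29.1 CPM at 20% O2 on day 1. The day 10 hypoxic library stood apart from the other 4, which spanned 23.8 to 30.6 CPM. Its difference was −1.31 (−1.63 to −1.02) on day 10, a 2.47-fold lower level, and −0.29 (−0.53 to −0.04) on day 1. SLC25A13 had 63.0 CPM in reoxygenated cells, 31.9 CPM at 1% O2 and 68.0 CPM at 20% O2 on day 10, and 62.4 CPM at 1% O2 and 68.3 CPM at 20% O2 on day 1. The difference was −1.09 (−1.28 to −0.91) on day 10, and the day 1 interval, −0.29 to 0.02, spanned 0. The glutamate carrier gene SLC25A22 differed by −0.60 (−0.74 to −0.47) on day 10, but its 20% O2 library of day 10, at 108 CPM, was the high one: the other 4 libraries lay between 71.2 and 80.3 CPM.

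Among the carriers of ornithine, basic and branched-chain amino acids and glycine, SLC25A15 was 2-fold lower. SLC25A15, the ornithine carrier of the urea cycle (chromosome 13, 40789611 to 40812460), had 44.3 CPM in reoxygenated cells, 22.7 CPM at 1% O2 and 51.4 CPM at 20% O2 on day 10, and 44.8 CPM at 1% O2 and 53.9 CPM at 20% O2 on day 1. The log2 difference was −1.17 (−1.40 to −0.96) on day 10 and −0.27 (−0.45 to −0.09) on day 1. SLC25A29, a carrier of basic amino acids, was in contrast higher at 1% O2 on day 10 by 0.62 (0.30 to 0.95), with 189 and 144 counts. SLC25A38, a glycine carrier needed for heme synthesis, and SLC25A44, a carrier of branched-chain amino acids, differed by −0.24 (−0.45 to −0.03) and −0.37 (−0.51 to −0.23) on day 10; both are named here after their values were seen. SLC25A20, the carnitine/acylcarnitine carrier of fatty acid oxidation, was lower at 1% O2 on both days, at −0.52 (−0.99 to −0.09) on day 10 and −0.61 (−1.07 to −0.20) on day 1, with 68 to 116 counts per library.

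The ATP-Mg/phosphate carriers, which adjust the adenine nucleotide content of the matrix in response to calcium, divided by gene. SLC25A23 had 73.1 CPM in reoxygenated cells, 118 CPM at 1% O2 and 67.2 CPM at 20% O2 on day 10, and 86.5 CPM at 1% O2 and 68.3 CPM at 20% O2 on day 1. Both hypoxic libraries were above the other 3, with differences of 0.80 (0.68 to 0.94) on day 10 and 0.34 (0.20 to 0.48) on day 1. SLC25A24, the most abundant of the 3, had 225 CPM in reoxygenated cells, 167 CPM at 1% O2 and 284 CPM at 20% O2 on day 10, and 265 CPM at 1% O2 and 276.5 CPM at 20% O2 on day 1. It was lower on day 10, at −0.76 (−0.85 to −0.68), and its day 1 interval, −0.14 to 0.01, spanned 0. SLC25A25 differed by −0.60 (−0.82 to −0.38) on day 10; 13.5% of its exonic bases overlap the antisense gene SLC25A25-AS1, whose reads cannot be told apart there without a stated strand setting.

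The carriers of cofactors, nucleotides and glutathione formed the largest group, with 11 members, of which 1 was higher and 3 were lower by the size rule on day 10, beside 14.4% and 7.04% of all genes. SLC25A32, the folate and FAD carrier (chromosome 8, 103398638 to 103415107), had 118 CPM in reoxygenated cells, 67.1 CPM at 1% O2 and 153 CPM at 20% O2 on day 10, and 140 CPM at 1% O2 and 143 CPM at 20% O2 on day 1. Its difference was −1.19 (−1.32 to −1.07) on day 10 and −0.03 (−0.13 to 0.08) on day 1, and the contrast between the days, −1.16 (approximate 95% interval −1.33 to −1.001), was the lowest of all members. Because 87.7% of sampled SLC25A32 words also occur in the overlapping gene model AC012213.5, its level rests on how the authors' annotation treated that model. Of its exonic bases, 11.1% overlap DCAF13 on the opposite strand. DCAF13 had 1327 counts at 1% O2 and 2934 at 20% O2 on day 10, and its part in the SLC25A32 counts was not tested. SLC25A17, a peroxisomal carrier of coenzyme A and related nucleotides (chromosome 22, 40769630 to 40819346), differed by −1.01 (−1.24 to −0.80) on day 10 and −0.32 (−0.51 to −0.13) on day 1, and lay just short of the rule with DESeq2 size factors (−0.99).

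In the same group, SLC25A42 was the 1 member past the size rule upward, and SLC25A51 and SLC25A36 lay above 0 short of it. SLC25A42, the coenzyme A carrier (chromosome 19, 19063994 to 19113030), had 4.03 CPM in reoxygenated cells, 8.92 CPM at 1% O2 and 3.43 CPM at 20% O2 on day 10, and 2.41 CPM at 1% O2 and 2.22 CPM at 20% O2 on day 1. The day 10 hypoxic library held 93 counts against 42 at 20% O2, a difference of 1.33 (0.84 to 1.94). SLC25A51, the NAD carrier (chromosome 9, 37877575 to 37904127), had 19.8 CPM in reoxygenated cells, 34.4 CPM at 1% O2 and 17.5 CPM at 20% O2 on day 10, and 22.5 CPM at 1% O2 and 23.6 CPM at 20% O2 on day 1. It differed by 0.97 (0.73 to 1.23) on day 10 and −0.07 (−0.33 to 0.19) on day 1; 21% of its sampled words occur in SLC25A52, which had 0 counts in every library. SLC25A36, a pyrimidine nucleotide carrier named here after its values were seen (chromosome 3, 140941836 to 140980995), had 94.7 CPM in reoxygenated cells, 136 CPM at 1% O2 and 81.3 CPM at 20% O2 on day 10, and 111 CPM at 1% O2 and 69.2 CPM at 20% O2 on day 1. Its differences were much alike on both days, 0.74 (0.62 to 0.86) on day 10 and 0.68 (0.55 to 0.82) on day 1, and its day 1 difference was the highest of the 40 members. Its close relative SLC25A33, also a pyrimidine nucleotide carrier, ran the other way, with −0.81 (−1.13 to −0.52) on day 10 and −0.42 (−0.69 to −0.15) on day 1. In the same group, SLC25A16, SLC25A26, SLC25A39 and SLC25A40 lay between −0.88 and −0.03 on day 10; the signs of SLC25A26 and SLC25A40 turned with library totals as the scaling, to 0.09 and 0.03.

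The mitoferrins, which bring iron into the matrix for heme and iron-sulfur cluster synthesis, differed in direction. SLC25A28, mitoferrin-2 (chromosome 10, 99610522 to 99659286), had 12.6 CPM in reoxygenated cells, 5.37 CPM at 1% O2 and 15.1 CPM at 20% O2 on day 10, and 9.83 CPM at 1% O2 and 13.6 CPM at 20% O2 on day 1. Both hypoxic libraries were below the other 3, and the day 10 difference of −1.46 (−1.95 to −1.05), on 56 and 185 counts, was the lowest of the 40 members. SLC25A37, mitoferrin-1, best known from developing red cells (chromosome 8, 23528956 to 23575463), had 67.8 CPM in reoxygenated cells, 96.1 CPM at 1% O2 and 70.6 CPM at 20% O2 on day 10, and 68.3 CPM at 1% O2 and 60.5 CPM at 20% O2 on day 1. It was higher at 1% O2 by 0.44 (0.31 to 0.58) on day 10 and 0.17 (0.02 to 0.33) on day 1. Per kilobase of transcript, SLC25A37 stood at 19.9 CPM and SLC25A28 at 3.70 CPM at 1% O2 on day 10, against 14.6 CPM and 10.4 CPM at 20% O2.

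Of the genes related to uncoupling proteins, SLC25A27 had the highest day 10 difference of the family. SLC25A27 (UCP4; chromosome 6, 46652975 to 46678190), described mainly from brain, had 4.40 CPM in reoxygenated cells, 9.49 CPM at 1% O2 and 2.04 CPM at 20% O2 on day 10, and 2.60 CPM in both day 1 libraries. The day 10 hypoxic library held 99 counts against 25 at 20% O2, a difference of 2.12 (1.57 to 2.91), while day 1 gave 28 against 27 counts. SLC25A30 and SLC25A14 differed by −0.46 (−0.70 to −0.23) and −0.55 (−1.21 to 0.04) on day 10. SLC25A46, an outer membrane member involved in mitochondrial shape (chromosome 5, 110738145 to 110765157), had 133 CPM in reoxygenated cells, 76.4 CPM at 1% O2 and 120 CPM at 20% O2 on day 10, and 122 CPM at 1% O2 and 122.5 CPM at 20% O2 on day 1. Its difference was −0.65 (−0.78 to −0.53) on day 10 and −0.01 (−0.12 to 0.10) on day 1.

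The 4 little-characterized members had few counts, apart from SLC25A43, which differed by 0.02 (−0.26 to 0.29) on day 10. SLC25A45 was higher at 1% O2 on day 10 by 1.46 (0.85 to 2.27), with 62 against 25 counts, and had 12 against 16 counts on day 1. SLC25A53 was lower, at −1.02 (−2.01 to −0.27), with 17 against 43 counts; the 20% O2 library of day 10 was the high one, since the other 4 libraries held 8 to 17 counts. SLC25A35, named after its values were seen, had 38 counts in reoxygenated cells, 23 at 1% O2 and 9 at 20% O2 on day 10, and 3 at 1% O2 and 10 at 20% O2 on day 1. It was the gene called lower on day 1 (−1.30, interval −4.29 to 0.16) and called higher on day 10 (1.37, 0.42 to 2.88). Of its exonic bases, 33.2% overlap RANGRF on the opposite strand, a gene with 134 to 255 counts per library, and its part in the SLC25A35 counts was not tested.

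**Figure D4:**
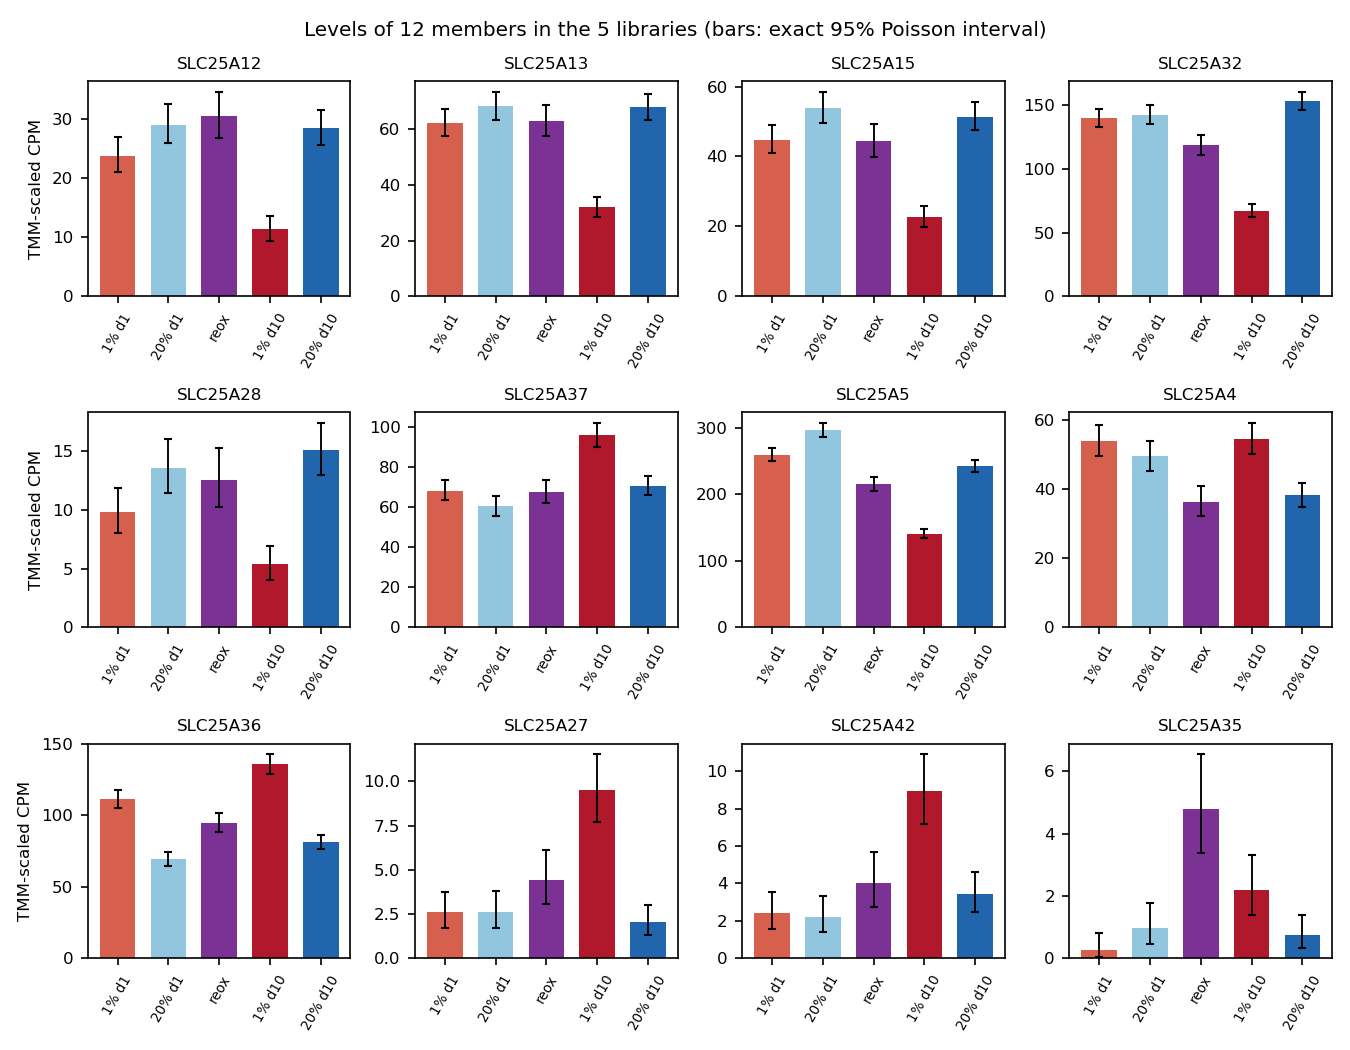
TMM-scaled CPM (vertical axes, from 0, scaled per gene) of 12 members in the 5 libraries (d1, day 1; d10, day 10; reox, reoxygenated); bars are single libraries and error bars exact 95% Poisson intervals for counting error alone. SLC25A12, SLC25A13, SLC25A15, SLC25A32 and SLC25A28 are lowest at 1% O2 on day 10, SLC25A27 and SLC25A42 are highest there, and SLC25A36 is above its 20% O2 partner on both days.

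The day 10 difference was also set against that of day 1, as chronic minus acute. By the size rule 5 members were higher in this contrast, beside 12.5% of all genes, and 2 were lower, beside 6.18% of all genes. The higher ones were SLC25A35 at 2.67 (0.50 to 4.83), SLC25A27 at 2.12 (1.13 to 3.11), SLC25A45 at 1.87 (0.60 to 3.14), SLC25A42 at 1.22 (0.25 to 2.18) and SLC25A51 at 1.04 (0.68 to 1.39), with approximate 95% intervals from the counts. The lower ones were SLC25A32 at −1.16 and SLC25A12 at −1.02 (−1.40 to −0.63). SLC25A12 lay just short of the rule with library totals (−0.89) and with DESeq2 size factors (−0.98). Across the 40 members the day 1 and day 10 differences, which share no library, had a Pearson r of 0.16 and a Spearman rho of 0.38, beside a Pearson r of 0.29 across all 13940 genes. Genes of the same libraries are not independent, and no p is given.

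The only comparison with more than 1 library on a side set both 1% O2 libraries against both 20% O2 libraries of day 1 and day 10, with day as a term, in edgeR's quasi-likelihood test over 13011 genes. The labels do not say whether the libraries came from separate cultures, so the p-values speak only of the scatter among these 4 libraries. With 1 library per condition, that scatter is how far the oxygen difference varied between day 1 and day 10, not replicate error. At 1 residual and 29.8 prior degrees of freedom, it was pooled mostly over all genes rather than estimated gene by gene. Of the 39 members tested (SLC25A35 was below the minimum), 0 rose, beside 0.899% of all genes, and 0 fell, beside 0.0999% of all genes, at a Benjamini-Hochberg adjusted p of 0.05. At an unadjusted p under 0.05 there were 10 members, 3 higher and 7 lower (25.6%, beside 12.2% of all genes tested). DESeq2 called 0 with 2 at an unadjusted p under 0.05, and limma-voom called 0 with 10. SLC25A36 had the lowest p, with a log2 estimate of 0.73 ± 0.26 (SE) and an edgeR adjusted p of 0.23. The others included SLC25A23 at 0.59 ± 0.27 and SLC25A27 at 1.18 ± 0.55 on the higher side, and SLC25A12, SLC25A13, SLC25A15, SLC25A17, SLC25A28 and SLC25A32 on the lower side, between −0.95 and −0.59, with edgeR adjusted p-values from 0.29 to 0.40. Leaving out the 1% O2 library of day 1, and with it the day term, gave 21 members called of 38 tested, beside 32.8% of all genes called in that fit; there the day 10 hypoxic library alone stands for low oxygen and is assumed to vary like the others. All of CA9, NDRG1, EGLN3 and VEGFA rose in the test of 4 libraries, with log2 estimates of 1.71 to 4.35.

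In reoxygenated cells over 1% O2 on day 10, 4 members were higher, beside 5.6% of all genes, and 2 were lower, beside 11.2% of all genes. SLC25A12 was higher by 1.41 (1.10 to 1.75) and SLC25A28 by 1.199 (0.74 to 1.73), while SLC25A42 was lower, at −1.11 (−1.77 to −0.55), as was SLC25A27, at −1.08 (−1.71 to −0.54). The other 2 higher ones, SLC25A35 at 1.05 and SLC25A21 at 1.03, rested on 38 against 23 and 14 against 8 counts, and SLC25A21 lay just short of the rule with library totals (0.99). In reoxygenated cells over 20% O2 on day 10, 2 members were higher, beside 3.4% of all genes, and 1 was lower, beside 1.41% of all genes. They were SLC25A35 at 2.42 (1.63 to 3.94) and SLC25A27 at 1.04 (0.33 to 1.91) on the higher side, and SLC25A53 at −1.63 (−3.10 to −0.70), with 8 against 43 counts, on the lower side. Counting intervals lay above 0 for 6 members, beside 19.5% of all genes, and below 0 for 13, beside 21.8% of all genes. Both comparisons use the reoxygenated library. The first shares its 1% O2 library, and the second its 20% O2 library, with the day 10 hypoxic comparison. Reoxygenated cells spent 10 days in 1% O2 and then 10 days in 20% O2, against 10 days in all for either day 10 library. In both comparisons oxygen history therefore cannot be told apart from time in culture.

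**Figure D5:**
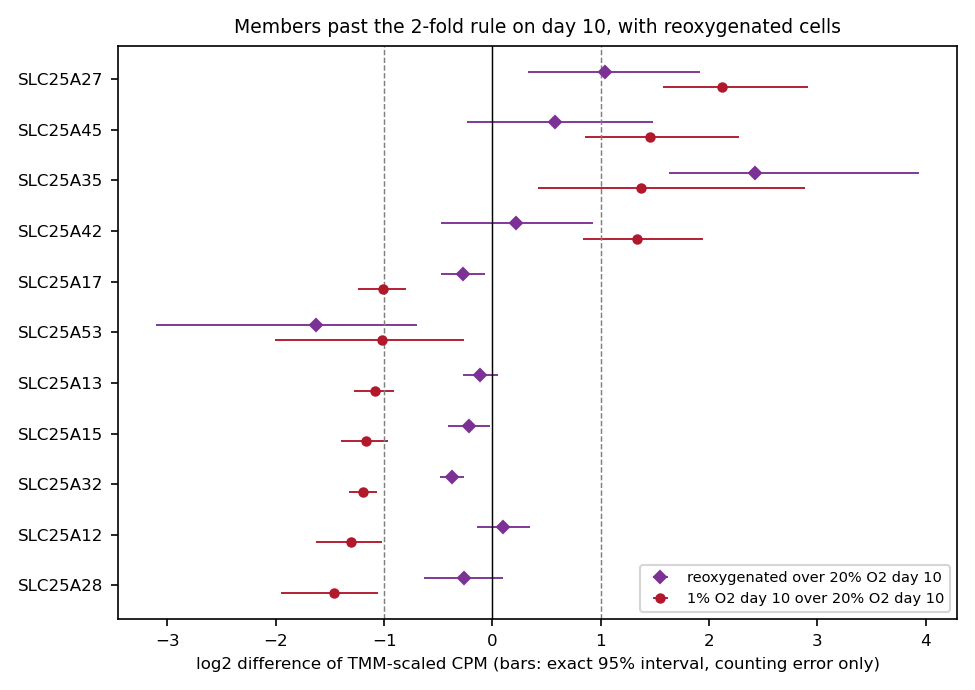
Log2 difference of TMM-scaled CPM (horizontal axis) over the same 20% O2 library of day 10, for reoxygenated cells (purple diamonds) and for 1% O2 on day 10 (red circles), of 11 of the 12 members past the 2-fold rule in the day 10 hypoxic comparison; bars are exact 95% intervals for counting error alone and dashed lines mark the rule. In reoxygenated cells 6 of the 7 lower members shown lie between −0.37 and 0.10, the exception being SLC25A53 at −1.63, and SLC25A27 (1.04) and SLC25A35 (2.42) lie past the rule.

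Among the members below 0 in chronic hypoxia, reoxygenated values over 20% O2 on day 10 differed from gene to gene: SLC25A12 stood at 0.10 (−0.14 to 0.34), SLC25A13 at −0.11 (−0.27 to 0.05) and SLC25A28 at −0.26 (−0.63 to 0.10). SLC25A32 was lower, at −0.37 (−0.49 to −0.26), and SLC25A15 was at −0.21 (−0.41 to −0.02). SLC25A24 was at −0.34 (−0.42 to −0.25), and SLC25A22 at −0.58 (−0.72 to −0.44), against the high 20% O2 library of day 10 named above. SLC25A33 was at −0.50 (−0.82 to −0.20), against −0.81 in chronic hypoxia, and SLC25A53 was at −1.63, as given above. SLC25A36 and SLC25A51 had instead been above 0 in chronic hypoxia, at 0.74 and 0.97. In reoxygenated cells SLC25A36 stood at 0.22 (0.08 to 0.36) and SLC25A51 at 0.18 (−0.13 to 0.48). The division genes had reoxygenated values between −0.33 and 0.03 in the same comparison.

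Between both 20% O2 libraries, day 10 over day 1, 1 member was higher by the size rule, beside 3.06% of all genes, and 0 were lower, beside 1.31% of all genes. It was SLC25A53 at 1.09 (0.33 to 2.11), on 43 and 16 counts. All 4 ADP/ATP and phosphate carriers lay below 0 in this comparison, between −0.64 and −0.29.

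Genes that work beside the carriers gave the following values. Over all genes, the size rule called 14.4% higher and 7.04% lower at 1% O2 on day 10. Of the 5 family members under other symbols, MTCH2, an outer membrane insertase, was lower at 1% O2 on day 10, at −1.12 (−1.24 to −0.999), UCP2 differed by −0.71 (−0.998 to −0.44) and MTCH1 by −0.03 (−0.10 to 0.03). UCP3 had 10 to 18 counts per library and UCP1 had 0 in all 5. Of 10 genes for the import of carriers into the inner membrane, 1 was lower on day 10 and 0 were higher, with a median of −0.55: TIMM10, a chaperone of the intermembrane space, had 123 counts at 1% O2 against 513 at 20% O2, a difference of −1.81 (−2.12 to −1.54). Of 17 other inner membrane transporters, SFXN2 at −2.45 (−3.004 to −2.04) and SFXN4 at −1.40 (−1.71 to −1.13) were lower and SFXN3 at 1.13 (1.01 to 1.26) was higher, all of them sideroflexins. Among 11 regulators of mitochondrial gene expression, GABPB1 at −1.69, TFB2M at −1.10 and TFAM at −1.02 were lower, and PPARGC1A, a coactivator of mitochondrial biogenesis, was higher at 1.94 (1.53 to 2.46), on 175 against 52 counts. Of 19 measured enzymes that use the carriers' substrates, 0 passed the size rule on day 10, and their median was −0.28; the mitochondrial aspartate aminotransferase gene GOT2 differed by −0.70 (−0.80 to −0.61) and its cytosolic partner GOT1 by −0.02 (−0.17 to 0.13). In the edgeR test of 4 libraries 0 genes of these 5 lists rose or fell, and 8 of the 61 tested had an unadjusted p under 0.05 (13.1%, beside 12.2% of all genes tested).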

How the data were processed

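Libraries of mRNA from MDA-MB-231 cells (KAPA mRNA HyperPrep kit, per the labels' protocols) were analysed, 1 per condition. The tools listed are RSEM 1.2.15, Bowtie2 2.1.0 and edgeR, with the hg38 build, per the submitters' processing notes. The gene annotation and strandedness are not stated in these sources. The authors deposited expected counts per gene symbol, not normalized, of which 3.58% to 4.09% per library were not whole; these were rounded. The authors also deposited a TMM-normalized signal table, whose values were all whole-read multiples (100%, tolerance 0.01) and matched the rounded counts in 99.95% of cases. It served as alternatives, as log2(value + 1) and as recovered reads (this one chosen after seeing the data, with 0 members and 130 genes in all called for oxygen). RSEM shares reads between overlapping and near-identical genes, so their rows can trade counts.

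The 13940 genes that reached 1 CPM in any library were scaled with TMM factors (0.965 and 0.965 for 1% and 20% O2 on day 1, 1.03 for reoxygenated cells, 1.07 and 0.977 for 1% and 20% O2 on day 10; edgeR 4.0.16, R 4.3.3) and compared as log2 CPM with a prior count of 2. Pairwise differences have no test. The oxygen test was a quasi-likelihood fit in edgeR with terms for oxygen and day (genes reaching 1 CPM in 2 or more of 4 libraries; 1 residual and 29.8 prior degrees of freedom; common dispersion 0.0484), with DESeq2 1.42.0 and limma-voom 3.58.1 as alternatives; its script was tested on simulated data. No molecular identifiers are mentioned for the reads, so intervals cover counting error only and may be too narrow.

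Members, role groups and context lists were chosen with earlier results of these data known. Genes named were those called for oxygen, those past 2-fold with at least 5 CPM in a library and an interval excluding 0, a fixed panel, and the highest and lowest member of each role group on day 10; members outside this rule are described as well. The values of 1 member are not reported here, though it is part of the counts and medians. Coordinates and promoters are from RefSeq (GRCh38.p14). Exon overlap, transcript length (median of basic protein-coding transcripts) and shared 50-base words, taken every 5 bases, are from GENCODE on GRCh38.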

Additional observations from a re-analysis of the deposited data

Results flagged for a closer look

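SLC25A6, an ADP/ATP carrier gene, had intervals that excluded 0 in opposite directions on the 2 days: its log2 difference of 1% O2 over 20% O2 was −0.243 on day 1 and 0.179 on day 10. The contrast between the days was 0.42, with an approximate interval of 0.28 to 0.56 for counting error alone, and the difference was not tested, since each condition had 1 library.

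SLC25A25-AS1, an antisense gene outside the 40 members, had 64 counts at 1% O2 on day 10 and 50 counts in reoxygenated cells, against 37 counts at 20% O2 on day 10, and both ratios had intervals above 1. It overlaps 13.5% of the exonic bases of SLC25A25, which had 263 counts at 1% O2 on day 10 and 241 in reoxygenated cells, against 468 at 20% O2.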

How the results depend on the processing

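The chronic count of 12 members past 2-fold became 9 with library totals, 11 with DESeq2 size factors, 12 with a prior count of 0.5, 10 with a minimum of 5 CPM, 13 with no filter and 10 with the authors' normalized values. With a minimum of 5 CPM the counts were 0 in the acute comparison, 1 for reoxygenated over 20% O2 and 0 for time at 20% O2, since members of few counts were left out. With the authors' normalized values as log2(value + 1) they were 0 in the acute comparison, 3 for reoxygenated over 1% O2 and 0 for time at 20% O2; with no filter the last was 2, and the cause was not tested. The oxygen test called 0 members in its 8 other alternatives, and between 0 and 21 when 1 library was left out, the 21 without 1% O2 on day 1. No result that was called changed its direction. SLC25A6 in the oxygen test (−0.02) turned to 0.03 with library totals, to 0.03 with a minimum of 5 CPM, and to values above 0 without 20% O2 on day 1 (0.33) or 1% O2 on day 10 (0.04). Apart from the day term of the oxygen test, no paired analysis was possible. The labels give no replicate numbers and each condition has 1 library. Depth limits the members of few counts: the day 10 intervals of SLC25A14, SLC25A21, SLC25A27, SLC25A35, SLC25A42, SLC25A45 and SLC25A53 are wider than 1 log2 unit.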

Other observations

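Of the 10 rows under the minimum, SLC25A31, the ADP/ATP carrier of the germ line, and SLC25A47, SLC25A48, SLC25A52 and the pseudogenes SLC25A3P1 and SLC25A51P1 had 0 counts in all 5 libraries. SLC25A2 had 3 counts and SLC25A41 had 2 counts at 1% O2 on day 10 and 0 in the other 4 libraries, which is at or under the 3 counts that a count of 0 allows. SLC25A18 had 1 count at 1% O2 on day 1 and 0 elsewhere. SLC25A34 had 4 counts in reoxygenated cells, 8 at 1% O2 and 6 at 20% O2 on day 10, and 4 at 1% O2 and 1 at 20% O2 on day 1.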
